A study of Mus musculus with 8 samples.

Results

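The difference between the peroxide responses of 2 lines of mouse embryonic fibroblasts was examined gene by gene. For each gene the change after hydrogen peroxide (H2O2) in Stat3-C3S cells was set against the change in WT-Stat3 cells, which is the interaction of line and treatment. A gene was a member when its mean expected count, a read count that need not be whole because some reads are shared out between genes, reached 10 in at least 1 of the 4 groups. This rule was met by 13538 of the 19041 genes counted. The rule used the count level only, so a gene could enter through a treated group alone. Changes are written as log2 ratios unless a fold is given.

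All cells came from immortalised Stat3fl/fl fibroblasts, in which the endogenous Stat3 gene had been deleted by a retrovirus carrying Cre recombinase and the surface marker Thy1.1. The cells were then transduced again with a retrovirus expressing GFP together with either wild-type Stat3 (WT-Stat3) or Stat3-C3S, a redox-insensitive form in which cysteines of the DNA-binding domain are replaced. Both lines therefore carry Cre, Thy1.1 and GFP, and both express Stat3 from a viral vector. Each is a polyclonal population sorted for Thy1.1 and then for GFP, so each form of Stat3 is represented by 1 sorted population, and a difference between the forms of Stat3 and a difference between the sorted populations cannot be told apart. Cells were left untreated (basal) or given 100 µM H2O2 for 2 h, with 2 libraries for each of the 4 groups. The study's methods describe both libraries of a group as biological replicates, without saying what separated them. The p-values measure the spread between these libraries.

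Cytokines such as interleukin-6 and LIF activate the transcription factor Stat3 through the receptor subunit gp130 and Jak kinases. Its target Socs3 feeds back on the receptor, and its target Pim1 is a serine/threonine kinase of cell survival. Peroxide oxidises cysteines in many proteins, and in fibroblasts it is known to set off the immediate early genes downstream of MAP kinases, the Nrf2 antioxidant programme and the Atf4 stress programme that secures amino acid and cystine supply. A gene with an interaction is one whose response to peroxide had a different size or direction in the lines, whatever its level before treatment.

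The 8 libraries held 17050016 to 22260814 expected counts each, and more genes had at least 1 count in the treated libraries (15734 to 16681) than in the basal ones (14445 to 15052). Stat3 itself (chr11:100885098-100939540, minus strand, on the mouse genome GRCm38 as for all positions) was expressed from a vector in both lines, so its level does not check which form a library holds. It stood at 8474 and 8842 normalised counts in the basal and 7556 and 7449 in the treated WT-Stat3 libraries, and at 5014 and 5156 and then 4658 and 4798 in the C3S libraries. The difference of its responses was 0.10 (log2, SE 0.0561), with an adjusted p of 0.266 by edgeR's quasi-likelihood test, and was not called. Of the 11 fibroblast markers tested none was called by edgeR or DESeq2 (7 had an unadjusted p under 0.05). The 12 found among the genes counted summed to 232532.2 to 296785.6 normalised counts, and none was at 0 in all libraries. The summed level of 22 leukocyte markers was 59.8 to 143.8 in basal libraries, 454.0 to 501.4 in treated WT-Stat3 libraries and 272.4 to 330.2 in treated C3S libraries; none of the 13 tested was called in the interaction by edgeR or DESeq2 (1 had an unadjusted p under 0.05), and their median difference was -1.13. Skeletal muscle markers summed to 50.1 to 71.1 in basal and 166.6 to 269.9 in treated libraries. Other marker lists separated the lines instead: 42 epithelial and keratinocyte markers summed to 5549.5 to 5904.2 in WT-Stat3 and 3016.5 to 3448.4 in C3S libraries, and 12 neuronal markers to 629.5 to 696.4 and 1945.7 to 2198.2. One of 29 epithelial markers tested was called higher in the interaction (3.45%), Evpl, a protein of the keratinocyte envelope. So was 1 of 8 neuronal markers (12.5%), the tubulin Tubb3, beside 1.00% of all genes. Evpl lost its call without C3S basal replicate 1 (adjusted p = 0.17, edgeR), C3S H2O2 replicate 2 (0.0611), WT-Stat3 basal replicate 2 (0.0706) or WT-Stat3 H2O2 replicate 2 (0.0599), and Tubb3 slipped under 2-fold without WT-Stat3 basal replicate 1 (0.967) or WT-Stat3 H2O2 replicate 2 (0.960). The 12 endothelial markers summed to 966.9 to 1432.1, and no listed marker in the table was at 0 in all libraries. The part of these cell types in the results was not tested.

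The responses of the lines were correlated across genes, though many genes were called in 1 line only. Across 11321 genes whose highest group mean reached 50 normalised counts, the log2 responses of the lines had a Pearson correlation of 0.777, a description across genes that share the same libraries. A change of at least 2-fold with an adjusted p under 0.05 was a call throughout, and the words rose and fell are kept for changes with an adjusted p under 0.05. By this rule 1251 genes (9.24%) were called in WT-Stat3 cells, 1015 up (7.50%) and 236 down (1.74%), and 1210 (8.94%) in C3S cells, 1006 up (7.43%) and 204 down (1.51%). Of these genes 757 were called in the same direction in both lines and 6 in opposite directions. The interaction was called for 191 genes, 1.41% of the genes tested. In 136 of them (1.00%) the response was higher in C3S cells, which covers both a larger rise and a smaller fall, and in 55 (0.406%) it was lower. Without the 2-fold requirement 1705 genes (12.6%) passed, 1249 higher (9.23%) and 456 lower (3.37%), so that 73.3% of them were higher; with TMM scaling 931 were higher and 635 lower, or 59.5% higher. Over all genes tested the median difference was 0.0244 on the log2 scale, with quartiles of -0.155 and 0.202. Among 10386 genes with a mean of at least 100 in some group the responses lay within 2-fold of each other in 98.4%.

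**Figure D1:**
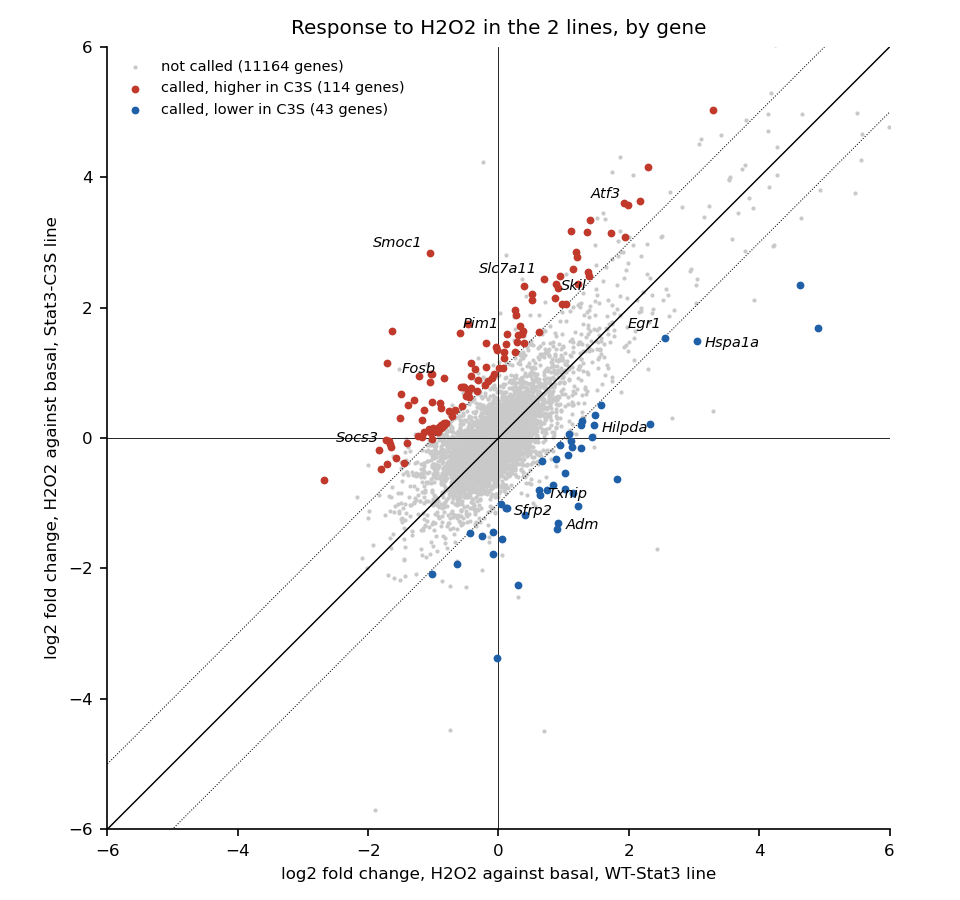
Log2 fold change after H2O2 in the WT-Stat3 line (horizontal) and the Stat3-C3S line (vertical) for 11321 genes with a mean of at least 50 normalised counts in some group. Points on the solid line responded alike and dotted lines mark a 2-fold difference; 114 genes called higher in C3S (red) lie above the upper and 43 called lower (blue) below the lower dotted line, and 19 genes fall outside the axes.

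A call in one line but not in the other was rarely a called difference. Of 488 genes called in WT-Stat3 cells without a call in C3S cells, 57 (11.7%) had a called interaction, and of 447 genes with the converse pattern 59 (13.2%) had one. Of all 1698 genes called in either response, 147 (8.66%) differed between the lines.

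The 136 genes with a higher response in C3S fell into 5 patterns by the calls of at least 2-fold in each line, where a response that was not called may still be a smaller rise or fall. In 43 the C3S response alone was called, upward, in 33 the WT-Stat3 response alone was called, downward, in 20 both were called up, in 4 the lines were called in opposite directions, and in 36 neither single response was called. Of the 55 genes with a lower response in C3S, the WT-Stat3 response alone was called up in 24 and the C3S response alone was called down in 16. In 4 both were called up (Egr1, Hspa1a and the low-count genes Gm10406 and Fam71f2), in 2 WT-Stat3 was called up and C3S down (Sema3b and Rsc1a1), in 1 both were called down (Spry1), and in 8 neither was called. The precision followed the level: the median standard error of a difference was 1.186 on the log2 scale for genes whose highest group mean was under 20 and 0.074 for those at 1000 or above. With each of the 8 libraries left out in turn, 77 of the 191 genes stayed called every time, 57 higher and 20 lower, and 70 of these were also called by DESeq2 and with TMM scaling. The called genes whose values are given are among these 70 unless a library, a setting or a low count is named with them.

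In the Stat3 and cytokine pathway 3 of 39 genes tested were called, all higher in C3S (7.69%, beside 1.00% of all genes). Each stayed called whichever library was left out. The median difference over the 39 was 0.055 on the log2 scale, beside 0.024 for all genes. Socs3, the feedback inhibitor of gp130 signalling (chr11:117966079-117970047, minus strand), stood at 918 and 819 normalised counts in basal WT-Stat3 cells and at 278 and 249 after H2O2. In C3S cells it stood at 333 and 309 before and 311 and 314 after. Socs3 thus fell by 1.72 (log2, SE 0.0871) in WT-Stat3 cells, to a level near that which C3S cells had throughout. The difference of the responses was 1.68 (SE 0.135, adjusted p = 2.41e-11, edgeR). The treated libraries of the lines were much closer to each other than the basal ones, which did not overlap.

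Pim1 (chr17:29490753-29496112, plus strand) showed the opposite arrangement. It stood at 459 and 448 in basal and 520.4 and 468 in treated WT-Stat3 libraries, against 353 and 389.8 and 1124 and 1126 in C3S libraries. The C3S cells alone rose, 3.01-fold, and the treated C3S libraries lay above all others. The difference was 1.47 (SE 0.112, adjusted p = 7.58e-12, edgeR); an annotated gene on the other strand covers 14.5% of the Pim1 exons. Lif, which encodes a cytokine that signals through gp130 to Stat3, rose in both lines. It went from 299 and 291 to 787 and 733 in WT-Stat3 cells and from 111 and 129 to 699 and 712 in C3S cells. The rise was 2.58-fold and 5.82-fold, a difference of 1.17 (SE 0.14, adjusted p = 1.55e-07, edgeR). The C3S cells started lower and reached nearly the same level.

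Immediate early genes are the transcription factors and regulators induced first by growth factors and stress. Of 40 tested 5 were higher in C3S (12.5%, beside 1.00% of all genes) and 2 lower (5.00%, beside 0.406%). The median difference was 0.371, and by adjusted p alone 20 were higher and 6 lower, beside 9.23% and 3.37% of all genes. The 5 were Fosb, Csrnp1, Atf3, Nr4a1 and Nr4a2, and all stayed called whichever library was left out. Fosb, an AP-1 subunit (chr7:19302696-19310051, minus strand), moved in opposite directions: from 1870.2 and 1750.0 to 995 and 1027 in WT-Stat3 cells and from 1437 and 1491 to 2704 and 2824 in C3S cells. Neither response reached 2-fold (log2 -0.84 and 0.92), but their difference of 1.76 (SE 0.0747, adjusted p = 2.65e-18, edgeR) had the smallest p of all genes with a mean of at least 1000. All treated C3S libraries lay above, and all treated WT-Stat3 libraries below, every basal library.

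Nr4a1, an orphan nuclear receptor (chr15:101254269-101274795, plus strand), rose in both lines, from 849.7 and 697 to 1453 and 1399 in WT-Stat3 and from 620.3 and 572 to 3118 and 3003 in C3S cells. This was 1.84-fold against 5.15-fold, a difference of 1.49 (SE 0.096, adjusted p = 7.45e-13, edgeR). Csrnp1, a nuclear protein first described as an axin-induced gene (chr9:119971163-119984658, minus strand), went from 857 and 819 to 1182 and 1206 in WT-Stat3 and from 548 and 483 to 2422 and 2342 in C3S cells. The rise was 1.42-fold against 4.64-fold (difference 1.70, SE 0.0881, adjusted p = 3.99e-16, edgeR). In both genes the C3S libraries were the lower ones before treatment and the higher ones after it.

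Atf3, a stress-induced partner of AP-1 and Atf4, rose from 372 and 281 to 1327 and 1283 in WT-Stat3 and from 63.5 and 59.2 to 745 and 715 in C3S cells. The ratio was larger in C3S (difference 1.58, SE 0.17, adjusted p = 2.65e-08, edgeR), but the rise in normalised counts was larger in WT-Stat3, 978.6 against 668.5; the C3S cells had started lower. Among all called genes the difference taken in normalised counts had the other sign in 9 of the 136 higher and 2 of the 55 lower.

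Egr1 and Jun went the other way. Egr1, a zinc finger factor induced through serum response elements, rose from 2447 and 2583 to 14897 and 14680.4 in WT-Stat3 and from 4747 and 4493 to 13285 and 13464 in C3S cells. Jun, the main partner in AP-1, rose from 1929 and 1815 to 4557 and 4553 in WT-Stat3 and from 5488 and 5261 to 6421 and 6417 in C3S cells. The differences were -1.02 (SE 0.057, adjusted p = 2.91e-15) and -1.03 (SE 0.0609, adjusted p = 1.38e-14, both edgeR), close to the 2-fold limit. Each slipped under 2-fold without C3S basal replicate 1 (-0.986 for Egr1 and -0.999 for Jun), and Egr1 also without WT-Stat3 basal replicate 1 (-0.977) and Jun without WT-Stat3 basal replicate 2 (-0.977), with adjusted p far below the threshold each time. In basal cells both were higher in C3S, by 0.88 and 1.52 on the log2 scale.

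Genes that feed back on MAP kinases had 4 members higher and 1 lower of 19 tested (21.1% and 5.26%, beside 1.00% and 0.406% of all genes). Their median difference was 0.192. Dusp10 and Dusp4, phosphatases of MAP kinases, stayed called whichever library was left out. Dusp10 fell from 365 and 396 to 273 and 279.9 in WT-Stat3 and rose from 511 and 552 to 864 and 869.6 in C3S cells (difference 1.16, SE 0.119, adjusted p = 6.48e-09, edgeR). Dusp4 was far lower in C3S cells at the start, at 122 and 126 against 1434 and 1566, and went to 347 and 338 against 1935 and 1984; its ratio rose more in C3S (difference 1.08) while its normalised counts rose more in WT-Stat3, 460.1 against 218.5. Spry2, an inhibitor of receptor tyrosine kinase signalling, rose from 1133 and 1050.4 to 2158 and 2147 in C3S cells, against 1174 and 1149.6 and then 1114 and 1112 in WT-Stat3 cells. Its difference of 1.05 was 0.984 without C3S basal replicate 2. The remaining calls, Dusp2 (higher) and Spry1 (lower), rested on low counts: Dusp2 had 0 to 7.45 normalised counts in basal libraries and lost its call without C3S basal replicate 2 (adjusted p = 0.0688, edgeR), and Spry1, at most 62.3 in C3S libraries, lost its call without WT-Stat3 basal replicate 2, WT-Stat3 H2O2 replicate 2 or any 1 of the C3S libraries (adjusted p = 0.0519 to 0.127).

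**Figure D2:**
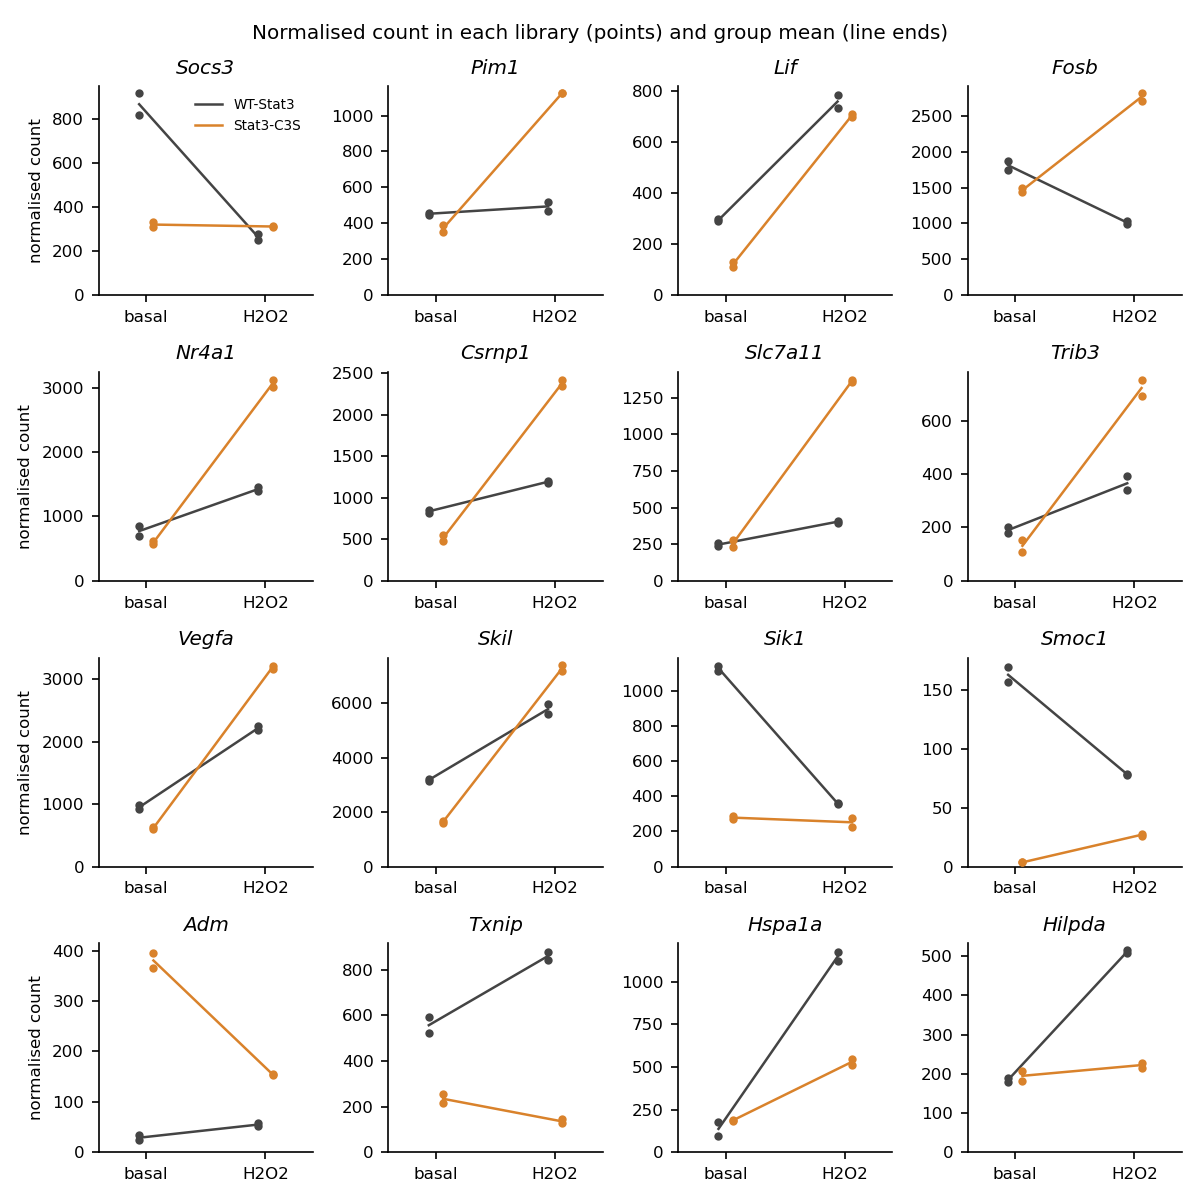
Normalised count of 16 called genes in each of the 8 libraries; points are libraries, lines join the group means of WT-Stat3 (grey) and Stat3-C3S (orange), and each vertical axis starts at 0. The slopes of the lines differ in every panel: Socs3 and Sik1 fell in WT-Stat3 alone, Pim1 and Slc7a11 rose mainly in C3S, and Adm and Txnip fell in C3S while they rose in WT-Stat3.

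The Atf4 programme is switched on by amino acid shortage and other stresses that slow translation. Of 42 tested 5 were higher (11.9%, beside 1.00% of all genes) and none lower. By adjusted p alone 24 were higher and 1 lower, beside 9.23% and 3.37% of all genes, and the median difference was 0.296. All 5 stayed called whichever library was left out. Slc7a11, a cystine-glutamate exchanger whose cystine goes into glutathione (chr3:49892526-50443614, minus strand), had nearly the same basal level in both lines, 236 and 260.1 in WT-Stat3 and 276 and 231 in C3S cells. After H2O2 it reached 396 and 411 in WT-Stat3 and 1369 and 1355 in C3S cells, that is 1.63-fold against 5.41-fold. The difference of 1.73 (SE 0.13, adjusted p = 5.18e-12, edgeR) lay in the treated libraries, since the basal ones overlapped.

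Trib3, a pseudokinase that restrains Atf4 and Akt, went from 202 and 179 to 391 and 339 in WT-Stat3 and from 154 and 108 to 750.3 and 693 in C3S cells (difference 1.54, SE 0.176, adjusted p = 1.14e-07, edgeR). Sesn2, a leucine sensor upstream of mTORC1 that is also a p53 target, went from 351 and 378 to 678 and 697 and from 377 and 382 to 1879 and 1853 (difference 1.38, SE 0.102, adjusted p = 4.01e-12). Chac1, which degrades glutathione, went from 334 and 332 to 387 and 434 and from 231 and 212 to 641 and 677 (difference 1.28, SE 0.135, adjusted p = 1.31e-08). In these genes the treated C3S libraries were the highest of all 8. The fifth member, Vldlr, a lipoprotein receptor, had a difference of 1.13.

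The Nrf2 and peroxide lists had 1 called gene each, a share of 2.38% and 4.00% beside 1.41% of all genes. Of 42 genes of the Nrf2 list, which also holds Keap1 and Nfe2l2, Slc7a11 was higher and none was lower. The median difference was 0.100, and the count of higher genes was larger without C3S basal replicate 2. Hmox1, the haem-degrading enzyme, rose 2.4-fold in WT-Stat3 and 4.19-fold in C3S cells, from 1167 and 1181 to 2882 and 2757 and from 1655 and 1571 to 7056 and 6448. Its difference of 0.80 (SE 0.0727, adjusted p = 4.34e-10, edgeR) stayed under 2-fold and so outside the calls. The peroxide list of 25 genes held peroxide-removing enzymes, their regulators and also superoxide dismutases. The one called was Txnip, the inhibitor of thioredoxin, and it was lower in C3S. Txnip (chr3:96557957-96561883, plus strand) rose from 591 and 523 to 841 and 878 in WT-Stat3 and fell from 216 and 254 to 145 and 127 in C3S cells. Neither change was 2-fold (log2 0.62 and -0.80), and they differed by -1.42 (SE 0.15, adjusted p = 1.24e-08, edgeR). The lines did not overlap before treatment, and were further apart after it.

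Of 31 heat shock genes none was higher and 1 lower (3.23%, beside 0.406% of all genes), Hspa1a, the inducible Hsp70. It went from 177 and 98.7 to 1122 and 1172 in WT-Stat3 and from 184 and 191 to 512 and 549 in C3S cells (8.24-fold against 2.82-fold, difference -1.55, SE 0.217, adjusted p = 0.000252, edgeR). The basal WT-Stat3 libraries were unlike each other, and reads from the near-identical copy Hspa1b may be shared out between the genes. None of 27 unfolded protein response genes was called by edgeR, nor by DESeq2; 16 had an unadjusted p under 0.05, and 1 was called higher without C3S basal replicate 2, C3S H2O2 replicate 2 or WT-Stat3 H2O2 replicate 1.

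A list of glycolytic genes, targets of the oxygen-regulated factor Hif-1 and members of its own pathway was split. Of 52 tested 2 were higher (3.85%, beside 1.00% of all genes) and 2 lower (3.85%, beside 0.406%). Each stayed called whichever library was left out. Vegfa, the vascular growth factor, rose from 980.4 and 919.5 to 2186 and 2251 in WT-Stat3 and from 602 and 635 to 3167 and 3215 in C3S cells, a difference of 1.14 (SE 0.0792, adjusted p = 7.45e-13, edgeR). Bhlhe40, a repressor that also belongs to the clock, rose 3.85-fold from 1499.9 and 1392 in WT-Stat3 and 8.47-fold from 389 and 393 in C3S cells. Its difference was 1.14 (SE 0.0784), although the WT-Stat3 libraries were higher throughout and gained more normalised counts, 4121.4 against 2923.0.

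Adm and Hilpda were the lower pair. Adm, which encodes the vasodilator adrenomedullin (chr7:110627661-110629820, plus strand), had 396 and 365 normalised counts in basal C3S and 33.7 and 24.5 in basal WT-Stat3 libraries. After H2O2 it fell to 154 and 156 in C3S and rose to 58.4 and 52 in WT-Stat3 cells, so the lines moved towards each other; the difference was -2.21 (SE 0.262, adjusted p = 1.55e-07, edgeR). Hilpda, a lipid droplet protein, started level, at 179 and 190.4 and 208 and 181, and rose to 507 and 516 in WT-Stat3 against 229 and 216 in C3S cells (difference -1.27, SE 0.16, adjusted p = 4.38e-07). Ahrr, the repressor of the aryl hydrocarbon receptor, behaved as Adm did: it rose from 24.7 and 34 to 64.5 and 65.2 in WT-Stat3 and fell from 243 and 332 to 172 and 151 in C3S cells (difference -1.99, SE 0.284, adjusted p = 4.52e-06).

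Among 34 genes of p53 and its targets 2 were higher (5.88%, beside 1.00% of all genes), Sesn2 and the growth arrest gene Gadd45a. Gadd45a went from 82.1 and 63.8 to 145 and 179.6 in WT-Stat3 and from 101 and 69.6 to 509.7 and 499 in C3S cells (difference 1.45, SE 0.235, adjusted p = 3.84e-05, edgeR). Of 21 clock genes 3 were higher (14.3%): Bhlhe40, the D-box repressor Nfil3 and the nuclear receptor Nr1d1. Nfil3 fell from 849.7 and 826 to 579 and 582 in WT-Stat3 and rose from 449 and 451 to 759 and 786 in C3S cells, a difference of 1.31 (SE 0.1, adjusted p = 7.58e-12). Nr1d1 rose in C3S alone (difference 1.06), a value that was 0.976 without C3S basal replicate 1 and 0.953 without WT-Stat3 H2O2 replicate 2. Mt2, a metallothionein that binds zinc and copper, rose from 39.6 and 45.7 to 193 and 226 in WT-Stat3 and from 32.3 and 22.8 to 555 and 409.8 in C3S cells (difference 1.86, SE 0.319, adjusted p = 0.000104); an antisense gene covers 73.5% of its exons.

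Inflammatory lists had single called genes. One of 38 genes of NF-kB and inflammation was lower (2.63%, beside 0.406% of all genes), the chemokine Ccl7, at 103 and 106 and then 159 and 165 in WT-Stat3 and 139 and 112 and then 82 and 53.4 in C3S cells (difference -1.51, SE 0.252, adjusted p = 5.56e-05, edgeR). It rose in one line and fell in the other, with no overlap of the treated libraries. The count of lower genes in this list was 2 without C3S basal replicate 2, C3S H2O2 replicate 2 or WT-Stat3 H2O2 replicate 1, and 3 without WT-Stat3 basal replicate 1. One of 49 interferon-stimulated genes was higher (2.04%, beside 1.00%), the exonuclease Isg20 (difference 1.24, SE 0.276, adjusted p = 0.00187), and none of 18 genes of MHC class I presentation was called by edgeR, nor by DESeq2, with 8 at an unadjusted p under 0.05; without WT-Stat3 basal replicate 2 edgeR called 1 higher.

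The 33 genes called down in WT-Stat3 cells without a call in C3S cells included regulators of several kinds. Dnm3os, a long non-coding RNA that hosts a microRNA cluster of mesenchymal cells, went from 312 and 303 to 43 and 53.7 in WT-Stat3 and from 209 and 209 to 135 and 134 in C3S cells (difference 2.03, SE 0.21, adjusted p = 8.4e-09, edgeR). Sik1, a salt-inducible kinase whose mention was chosen after its values were seen, went from 1142 and 1112 to 362 and 357 in WT-Stat3 and from 288 and 269 to 278 and 226 in C3S cells (difference 1.51, SE 0.134, adjusted p = 2.63e-10). As with Socs3, the basal WT-Stat3 libraries stood alone and the treated ones came near to the C3S level.

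Thbs2 and Edil3 were the matrix genes among those called down in WT-Stat3 cells alone, unlike Has2, Col2a1 and Col11a2. Of 44 matrix proteoglycans and glycoproteins 3 were higher (6.82%, beside 1.00% of all genes) and none lower, with a median difference of 0.158. Thbs2, an anti-angiogenic thrombospondin, went from 469 and 415 to 159 and 138 in WT-Stat3 and from 519 and 572 to 413 and 469 in C3S cells (difference 1.26, SE 0.146, adjusted p = 8.64e-08, edgeR). Edil3, an integrin ligand, fell from 83.1 and 83 to 35.1 and 32.6 in WT-Stat3 and rose from 86.2 and 90.3 to 126 and 139 in C3S cells (difference 1.87, SE 0.281, adjusted p = 1e-05). Has2, the hyaluronan synthase, had a difference of 1.06 that was 0.958 without WT-Stat3 basal replicate 2 and 0.964 without WT-Stat3 H2O2 replicate 2. Of 29 collagen chains 2 were higher (6.90%): Col2a1, the cartilage collagen, rose from 64.7 and 49.8 to 138 and 175 in C3S against 164 and 194 and 152 and 163 in WT-Stat3 cells (difference 1.65, SE 0.238, adjusted p = 5.3e-06), and Col11a2 lost its call without C3S basal replicate 1 (adjusted p = 0.054) or C3S H2O2 replicate 2 (0.0716). Col1a2, a chain of type I collagen and among the most abundant genes, fell from 26988 and 27735 to 13164 and 12588 in WT-Stat3 and from 36300.3 and 37218 to 28739 and 28893 in C3S cells; its difference of 0.74 (SE 0.0487, adjusted p = 3.04e-13) was under 2-fold. None of 44 matrix proteases and their inhibitors was called by edgeR or DESeq2, with 12 at an unadjusted p under 0.05; 1 was called higher without WT-Stat3 H2O2 replicate 1, and 1 lower without C3S H2O2 replicate 2 or WT-Stat3 basal replicate 1. None of 30 contractile and Yap genes was called by either tool, with 18 at an unadjusted p under 0.05.

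Developmental signalling lists ranged from none called (Hedgehog) to 13.0% (Wnt). None of 18 Hedgehog genes was called by edgeR or DESeq2, with 5 at an unadjusted p under 0.05. Of 46 Wnt genes 5 were higher (10.9%, beside 1.00% of all genes) and 1 lower (2.17%, beside 0.406%), with a median difference of 0.045. Dkk3, a secreted member of the Dickkopf family, fell from 208 and 213 to 59 and 61.8 in WT-Stat3 and less, from 213 and 223 to 161 and 155, in C3S cells (difference 1.33, SE 0.204, adjusted p = 1.49e-05, edgeR). Lgr6, a receptor for R-spondins, fell from 97.9 and 105 to 46.2 and 46 in WT-Stat3 cells and went from 44.3 and 48 to 60.2 and 64.6 in C3S cells (difference 1.57, SE 0.312, adjusted p = 0.000558). Sfrp2, a secreted Wnt-binding protein, was the one lower: it stood at 1309 and 1255 and then 1414 and 1361 in WT-Stat3 and fell from 1355 and 1309 to 673 and 585 in C3S cells. Its difference was -1.19 (SE 0.0876, adjusted p = 3.23e-12), and the treated C3S libraries stood apart from the other 6; without C3S H2O2 replicate 2 the lower count was 2. Wnt11, Wnt2b and Lef1 were also called higher but not in every leave-out. Wnt11 lost its call without C3S basal replicate 1 (adjusted p = 0.0833) or C3S H2O2 replicate 1 (0.108), and Lef1 slipped under 2-fold without C3S basal replicate 2 (0.986) or WT-Stat3 basal replicate 1 (0.980). Wnt2b, with 5.64 to 43.4 normalised counts, lost its call without C3S basal replicate 2 (adjusted p = 0.169), C3S H2O2 replicate 2 (0.105), WT-Stat3 basal replicate 2 (0.407) or WT-Stat3 H2O2 replicate 1 (0.133).

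Of 53 genes of TGF-beta and BMP signalling 1 was called (1.89%, beside 1.41% of all genes), Skil, the Smad corepressor SnoN. With adjusted p alone 15 were higher and 1 lower, beside 9.23% and 3.37% of all genes, and the median difference was 0.256. The count of higher genes was 2 without C3S basal replicate 1, C3S H2O2 replicate 2 or either basal WT-Stat3 library, and 3 without WT-Stat3 H2O2 replicate 1. Skil (chr3:31095058-31122577, plus strand) rose from 3147 and 3219 to 5599 and 5961 in WT-Stat3 and from 1612 and 1681 to 7185 and 7388 in C3S cells, 1.82-fold against 4.42-fold (difference 1.28, SE 0.0632, adjusted p = 1.35e-16, edgeR). Of 24 Notch genes 2 were higher (8.33%, beside 1.00% of all genes), the repressor Hes1 and the ligand Jag2. Hes1 fell from 1021 and 959.6 to 729.5 and 745 in WT-Stat3 and rose from 307 and 279 to 583 and 544 in C3S cells (difference 1.38, SE 0.109, adjusted p = 1.98e-11), while Jag2, with 14.1 to 52.5 normalised counts in C3S cells, lost its call with TMM scaling (adjusted p = 0.0626) and in 5 of the 8 leave-outs (0.0559 to 0.341; C3S basal replicates 1 and 2, C3S H2O2 replicate 1, WT-Stat3 basal replicate 1 and WT-Stat3 H2O2 replicate 2). Of 71 limb and mesenchyme transcription factors 1 was called, Pou3f3 (1.41%, the same share as the 1.41% of all genes). By adjusted p alone 23 were higher and 2 lower, with a median difference of 0.344. Pou3f3 had at most 35.7 normalised counts in a library and lost its call without either basal C3S library, C3S H2O2 replicate 2, WT-Stat3 basal replicate 2 or WT-Stat3 H2O2 replicate 1 (adjusted p = 0.0516 to 0.19). The count for this list was 0 without C3S H2O2 replicate 2, 2 without C3S basal replicate 2 or C3S H2O2 replicate 1, and 3 without WT-Stat3 basal replicate 1 or WT-Stat3 H2O2 replicate 2. One of 37 Hox genes, Hoxa7, was called (2.70%, beside 1.41% of all genes). Its difference of 1.08 lost the call without C3S H2O2 replicate 1 or the second replicate of any group. In those fits the difference was 0.838 to 1.080. Of 43 genes of PDGF, FGF and IGF signalling 2 were higher (4.65%, Fgf18 and Vegfa) and 2 lower (4.65%, Adm and Igf2). The shares over all genes were 1.00% and 0.406%. Fgf18 lost its call without C3S H2O2 replicate 2 (adjusted p = 0.113) and Igf2 without C3S basal replicate 2 (0.314) or C3S H2O2 replicate 1 (0.188), while the higher count was 4 without WT-Stat3 H2O2 replicate 2. Of 81 genes of guidance and cell adhesion 2 were higher (2.47%, Sema4a and Plxnb1) and 2 lower (2.47%, Robo2 and Sema3b). Sema4a lost its call without C3S basal replicate 2 (adjusted p = 0.0782) or WT-Stat3 basal replicate 1 (0.0626), Plxnb1 without C3S H2O2 replicate 2 (0.0534), and Robo2, with 0 to 8.38 normalised counts in C3S libraries, without C3S basal replicate 1 (0.111), C3S H2O2 replicate 1 (0.164) or WT-Stat3 H2O2 replicate 2 (0.0565).

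The lists of cellular upkeep had no call at 2-fold by edgeR. These were 76 cytosolic ribosomal proteins, 76 nuclear genes of oxidative phosphorylation, 41 proteasome subunits, 69 genes of G2 and mitosis, 65 of DNA replication and S phase, 20 G1 cyclins and Cdk inhibitors and 37 of cholesterol and fatty acid synthesis. DESeq2 and edgeR with TMM scaling called none of them either. An unadjusted p under 0.05 was reached by 18 of the ribosomal, 21 of the oxidative phosphorylation, 8 of the proteasome, 14 of the G2 and mitosis, 12 of the replication, 3 of the G1 and 17 of the lipid genes. By adjusted p alone, smaller differences passed, beside 9.23% higher and 3.37% lower among all genes. Genes of oxidative phosphorylation had 8 lower and none higher with a median of -0.127, those of G2 and mitosis 9 lower and 1 higher with a median of -0.032, and those of cholesterol and fatty acid synthesis 11 higher and 1 lower with a median of 0.108. With TMM scaling the median over all genes was -0.017 in place of 0.0244, so medians of this size depend on the scaling.

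**Figure D3:**
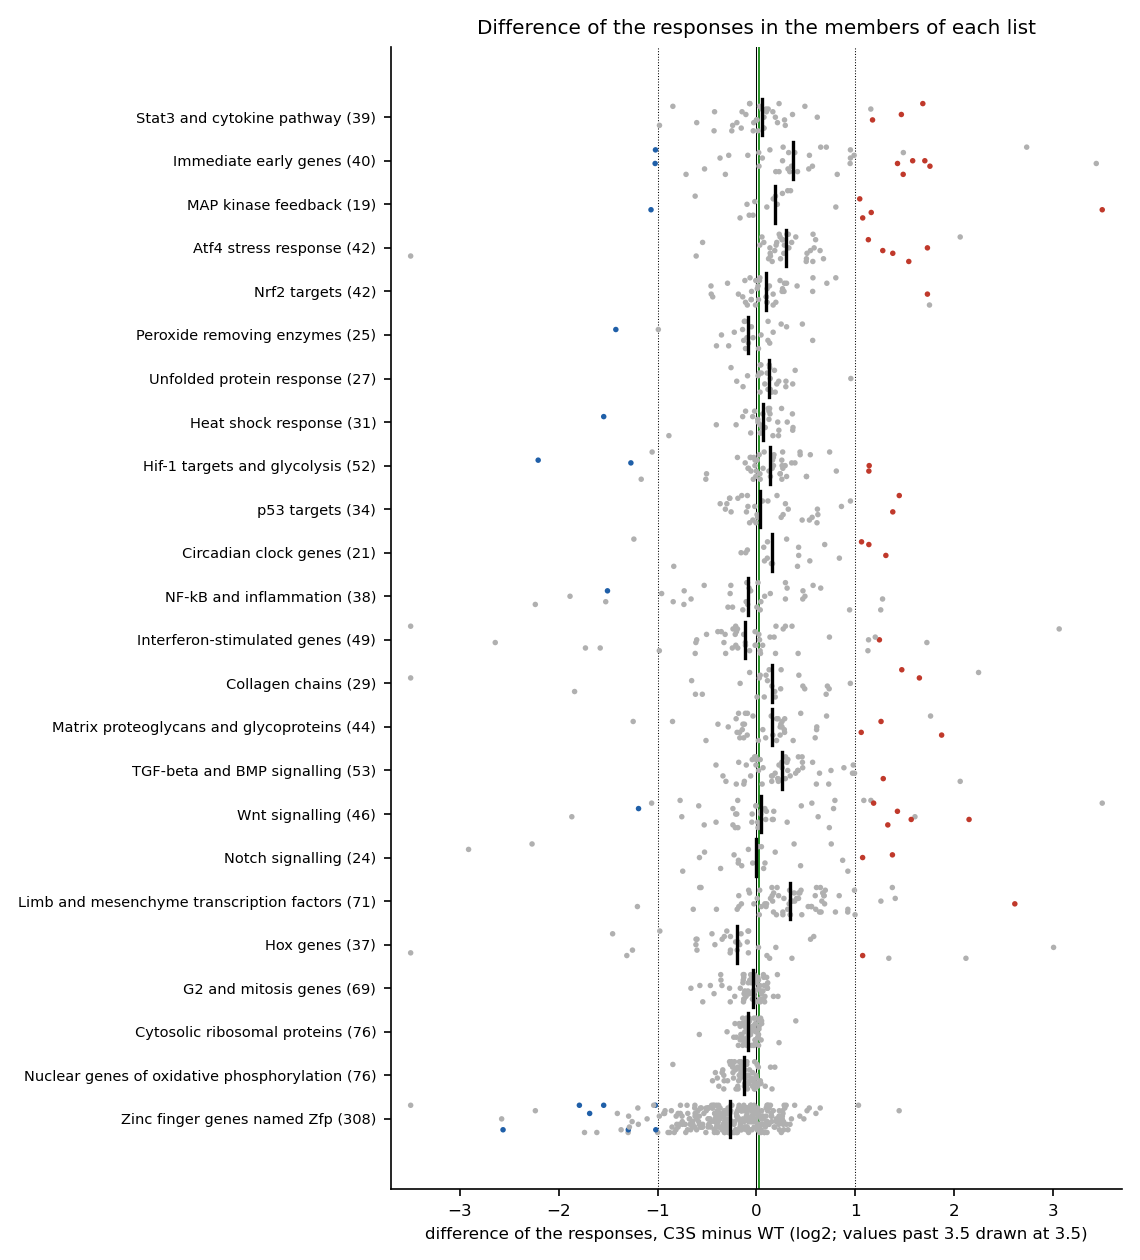
Difference of the log2 responses, C3S minus WT-Stat3, for every tested member of 24 gene groups, with the number tested in brackets; red and blue points are called genes, black bars are group medians, and the green line is the median of all genes tested. Most members of every group lie between the dotted lines of a 2-fold difference, and the Atf4 and limb groups have medians of 0.296 and 0.344 against 0.024 for all genes.

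In 4 genes the lines were called in opposite directions with a fall in WT-Stat3 and a rise in C3S. Smoc1, a secreted calcium-binding matrix protein that antagonises BMP signalling (chr12:81026808-81186414, plus strand), fell from 156 and 169 to 78.9 and 77.7 in WT-Stat3 and rose from 3.59 and 3.76 to 26.3 and 27.8 in C3S cells. The difference was 3.89 (SE 0.483, adjusted p = 3.59e-07, edgeR), and WT-Stat3 libraries stayed higher throughout. Gm14305, a predicted zinc finger gene with near-identical neighbours, so that its share of reads is uncertain, went from 76.7 and 123 to 25.4 and 38.7 in WT-Stat3 and from 11.4 and 28.6 to 70.3 and 60.7 in C3S cells (difference 3.28, SE 0.434, adjusted p = 2.67e-06). Zc2hc1c, a zinc finger gene, went from 40.6 and 26.6 to 12.8 and 11.7 and from 7.19 and 3.76 to 24.1 and 33.4 (difference 3.87, SE 0.651, adjusted p = 6.01e-05); DESeq2 gave no adjusted p for it, nor for Cpt1b and Sema3b, which are as low.

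The last of the 4, ChkbCpt1b, is a readthrough transcript whose exons are wholly shared with Chkb and Cpt1b, 2 neighbouring genes of phospholipid and fatty acid metabolism. It went from 87.2 and 84.9 to 22.2 and 30.3 in WT-Stat3 and from 8.47 and 28.8 to 49.8 and 37.8 in C3S cells (difference 2.87, SE 0.466). Cpt1b, the carnitine palmitoyltransferase of muscle, was called the other way, from 0.44 and 0.774 to 41.6 and 28 and from 21.4 and 14.6 to 17.1 and 19.5 (difference -5.77, SE 0.962). Estimated counts of overlapping genes can pass between them, so neither value can be assigned to 1 gene. Of the 2 genes with a rise in WT-Stat3 and a fall in C3S, Sema3b, a semaphorin, went from 9.89 and 2.13 to 21.5 and 20.9 in WT-Stat3 and from 32.3 and 31 to 10.9 and 12.2 in C3S cells (difference -3.21, SE 0.684, adjusted p = 0.00123, edgeR), and Rsc1a1 lies wholly within exons of Ddi2 and lost its call without WT-Stat3 H2O2 replicate 1 or any 1 of the C3S libraries (adjusted p = 0.0504 to 0.0982).

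Zinc finger genes with a Zfp number were a group picked after the values of these libraries were known. Of 308 tested 7 were lower (2.27%, beside 0.406% of all genes) and none higher, with a median difference of -0.266. With adjusted p alone 34 were lower and 9 higher, beside 3.37% and 9.23% of all genes. Of the 7, 4 stayed called whichever library was left out. Zfp763 fell from 123 and 128 to 88.7 and 72.6 in WT-Stat3 and from 128 and 127 to 31.4 and 34.6 in C3S cells (difference -1.30, SE 0.28, adjusted p = 0.00138, edgeR). Zfp40 stood at 43.9 and 41.6 and then 54.6 and 49.7 in WT-Stat3 and fell from 26.9 and 26.4 to 5.62 and 5.65 in C3S cells (difference -2.56, SE 0.539, adjusted p = 0.00103). Zfp39 stood at 60.6 and 77.4 and then 66.5 and 63.2 in WT-Stat3 and fell from 47.4 and 61.1 to 16.6 and 15.2 in C3S cells (difference -1.69). Zfp772 rose from 38.9 and 31.7 to 63.2 and 80.2 in WT-Stat3 and went from 32.3 and 47.5 to 23.2 and 24.5 in C3S cells (difference -1.79). In all 4 the treated C3S libraries were the lowest of the 8.

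Among other genes with a lower response in C3S, Rmnd1, a mitochondrial protein, went from 66.7 and 69.6 to 98.2 and 155 in WT-Stat3 and from 122 and 185 to 69.2 and 48.8 in C3S cells (difference -2.29, SE 0.354, adjusted p = 0.000228, edgeR). Its basal WT-Stat3 libraries lay close together, and those of each other group were further apart. Enthd2 stood at 176 and 136 and then 168 and 175 in WT-Stat3 and fell from 179.6 and 158 to 83.1 and 76.8 in C3S cells (difference -1.20, SE 0.221, adjusted p = 0.000212).

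Before treatment the median size of the difference between the lines, whichever its sign, was 1.349 (log2) in the genes called higher. It was 1.239 in those called lower, and basal differences were not tested gene by gene. Of the 136 genes higher in the interaction 93 were lower in C3S than in WT-Stat3 cells at baseline; the line difference changed sign after H2O2 in 54, became smaller in 39 and larger in 43. Of the 55 lower genes 40 were higher in C3S at baseline; the difference changed sign in 29, became smaller in 11 and larger in 15. The basal libraries enter both the baseline and the interaction values, so these counts describe the genes and were not tested. Slc7a11 (0.02 before and 1.76 after on the log2 scale, C3S over WT-Stat3) shows a gap that opened only on treatment, Socs3 (-1.44 and 0.24) one that closed, and Txnip (-1.24 and -2.66) one that widened. Il1rl1, the interleukin-33 receptor, was one of the abundant genes with the smallest p: it fell from 3076 and 3082 to 2295 and 2365 in WT-Stat3 and rose from 17948 and 18719.5 to 27502 and 27002 in C3S cells, and its difference of 0.97 (SE 0.0546, adjusted p = 2.91e-15, edgeR) was just under 2-fold and just over it (1.004) without WT-Stat3 H2O2 replicate 2.

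**Figure D4:**
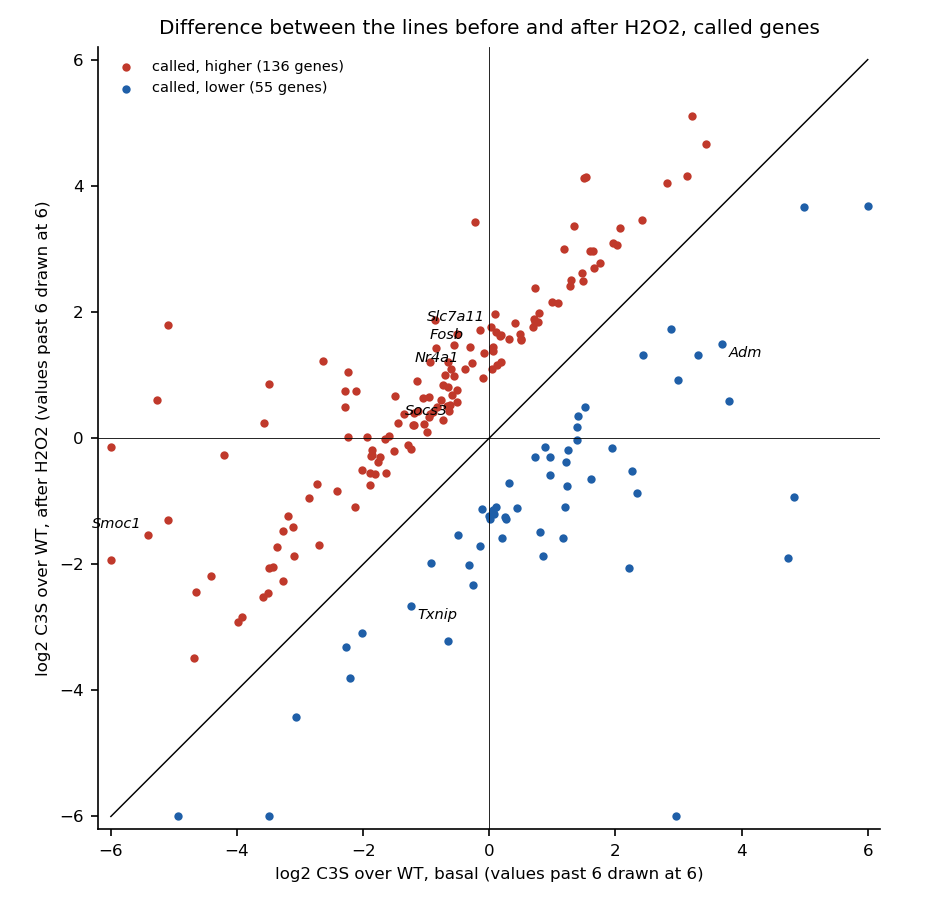
Log2 ratio of C3S to WT-Stat3 cells before (horizontal) and after H2O2 (vertical) for the 191 called genes; points on the diagonal would have no interaction, and 6 genes are drawn at an edge. Genes called higher (red) lie above the diagonal and genes called lower (blue) below it, which the call fixes; 54 red and 29 blue points lie in the quadrants where the sign changed.

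Several genes with large apparent differences could not be resolved at this depth. The apelin receptor Aplnr had a difference of -2.87 (SE 1.97, adjusted p = 0.384, edgeR) and was not called. Nor were the skin protease Asprv1 (-2.75, SE 1.68, adjusted p = 0.322) and the cytokine Il17f (-2.31, SE 1.85, adjusted p = 0.474, both edgeR). All were nearly absent before treatment in both lines and higher after it in WT-Stat3 than in C3S cells. In C3S cells Asprv1 (7.51-fold) and Il17f (9.96-fold) were called up. Aplnr reached only 4.38 and 2.23 normalised counts there, and its C3S response was not called. Where a basal group has almost no counts the ratio in that line is nearly unbounded, and the log2 difference carries that error. In 4 called genes a group had no count at all. For Gal3st1, Myh15 and Ccdc154 (higher) and Sec1 (lower) the difference computed with 3 counts over the empty group was 2.16, 2.21, 3.17 and -3.06, and each lost its call without at least 2 of the single libraries, among them C3S basal replicate 2 for the first 3 (adjusted p = 0.0589, 0.0773 and 0.0665) and C3S basal replicate 1 for Sec1 (0.158). At the edge of the filter, 259 genes had a highest mean of 10 to 12, of which 1 was called, and 302 had 8 to 10, of which 1 would have been called without the filter.

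A list of 199 genes that had been picked from these same libraries as responding differently in the lines is no independent evidence of its direction. Of these genes 28 (14.1% of the list, 14.7% of the 191 calls) were called here, beside 1.41% of all genes. By adjusted p alone 61 passed, beside 12.6% of all genes. Among 86 whose level was lower after H2O2 in WT-Stat3 cells 21 were higher in the interaction and none lower, and among the members whose level was higher 1 was higher and 6 lower. The median highest group mean was 53.8 for the list members that were not called, against 163.2 for those called. Of those not called, 74 had differences of at least 2-fold without passing the test, and the others differed by less than 2-fold. Why members were not called was not tested. A list of 925 gene symbols near Stat3 binding peaks in LIF-treated WT-Stat3 cells came from a separate assay of the same study. Of these symbols 545 were found among the genes counted and 473 were tested. In the interaction 10 were higher (2.11%, beside 1.00% of all genes) and 1 lower (0.211%, beside 0.406%), with a median difference of 0.060.

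Promoter windows were searched for short motifs in 10037 of the genes tested, those with an entry in the RefSeq promoter table (GRCm38.p6; 250 bases before to 50 after a start, both strands searched, a gene counted once). TTCCNGGAA, the element bound by Stat factors, was present in 1 of 98 genes called higher (1.02%) and 1 of 38 called lower (2.63%), against 1.55% of all. TGANTCA, the AP-1 element, was in 13 of 98 (13.3%) and 5 of 38 (13.2%), against 6.55% of all. ACGTG or GCGTG, the Hif-1 core, was in 57.1% and 68.4% against 67.0%. TGACNNNGC, the Nrf2 core, was in 18.4% and 10.5% against 17.0%. GAANNTTC, part of the heat shock element, was in 8.16% and 15.8% against 6.96%. TGACGTCA, the cAMP response element, which was added after the values were known, was in none of the 98 or the 38, against 3.55% of all. The letters TGACTCAGC satisfy both TGANTCA and TGACNNNGC, and such windows count for both. These shares are descriptions and were not tested.

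The AP-1 letters are given in place for Csrnp1, Lif and Mt2, of the genes whose rise was larger in C3S, and the heat shock letters for Hspa1a, whose rise was larger in WT-Stat3. These are chosen examples. The AP-1 letters were also in promoter windows of Hilpda, called lower, and the heat shock letters in those of Adh7 and Slc6a17, called higher. Each line gives the 250 bases before a RefSeq start, 5′ to 3′ on the gene's strand, with the match in capitals. The Csrnp1 stretch (chr9:119983024-119983273, minus strand) precedes the most downstream of its starts and holds 2 matches, beginning 102 and 14 bases before it. The Lif stretch (chr11:4257318-4257567, plus strand) has 1 match beginning 228 bases before the start, the Mt2 stretch (chr8:94172368-94172617, plus strand) 1 at 79 bases, which also satisfies the Nrf2 core, and the Hspa1a stretch (chr17:34972157-34972406, minus strand) 1 at 104 bases.
Csrnp1: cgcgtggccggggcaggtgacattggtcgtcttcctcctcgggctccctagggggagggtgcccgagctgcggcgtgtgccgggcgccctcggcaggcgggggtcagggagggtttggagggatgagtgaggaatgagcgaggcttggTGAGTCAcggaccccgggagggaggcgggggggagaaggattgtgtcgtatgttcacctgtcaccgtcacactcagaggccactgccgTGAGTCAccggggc
Lif: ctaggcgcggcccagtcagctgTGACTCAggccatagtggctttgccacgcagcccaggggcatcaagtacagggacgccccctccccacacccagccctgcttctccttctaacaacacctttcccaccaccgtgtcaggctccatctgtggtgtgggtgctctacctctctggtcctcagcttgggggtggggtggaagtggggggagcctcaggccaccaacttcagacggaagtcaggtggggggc
Mt2: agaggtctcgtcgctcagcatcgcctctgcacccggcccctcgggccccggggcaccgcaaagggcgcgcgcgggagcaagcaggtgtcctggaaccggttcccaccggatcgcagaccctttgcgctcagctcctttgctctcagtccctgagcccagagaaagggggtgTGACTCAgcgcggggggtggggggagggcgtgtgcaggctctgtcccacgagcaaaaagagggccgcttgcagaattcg
Hspa1a: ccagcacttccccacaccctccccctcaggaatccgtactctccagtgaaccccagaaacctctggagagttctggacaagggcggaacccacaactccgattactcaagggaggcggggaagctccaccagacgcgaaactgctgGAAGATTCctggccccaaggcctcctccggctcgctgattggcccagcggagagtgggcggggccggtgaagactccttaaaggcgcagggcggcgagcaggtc
The first 3 genes were higher in the interaction (differences 1.70, 1.17 and 1.86) and Hspa1a was lower (-1.55).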

How the data were processed

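RNA of the 8 libraries (2 per group) had been sequenced from a directional mRNA kit as single-end 50-base reads. The submitters' processing notes name TopHat2 2.0.10; the counting program is not given in the sources used here. The authors deposited expected counts per gene (58.4% of values whole, within 1e-09) and, on a second sheet, their normalised signal. That deposited signal did not enter the tests. The columns of their own comparisons (means, fold changes, p-values), 24 in all, were not used. Spreadsheet conversion had turned 27 gene symbols into dates (0.28% of counts); none was called.

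Counts were rounded and tested with edgeR 4.0.16 (R 4.3.3; robust quasi-likelihood, median-of-ratios size factors, 13538 genes) in 1 model of the 4 groups; the contrast was the C3S response minus the WT-Stat3 response, with Benjamini-Hochberg adjustment. A call needed an adjusted p under 0.05 and a 2-fold difference. Normalised counts are counts divided by size factors. Replicate numbers are those of the columns. The fit was tested on simulated data. Alternatives were TMM, other filters, DESeq2 1.42.0, a replicate block, a test against 2-fold (glmTreat) and leaving out each library.

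Members and lists were chosen with earlier results of these data known. Genes named were Stat3; the 15 largest called differences each way (mean at least 100); genes called oppositely in the lines (mean at least 50); up to 4 called members of each list; Socs3, Hmox1, Egr1, Aplnr, Asprv1 and Il17f; and the 8 smallest p among genes with a mean of at least 1000. Other named genes were chosen after their values were seen, and not all genes the rule gives are described; some items are not reported here. Positions are from GENCODE M21 (GRCm38, the same assembly as mm10).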

Additional observations from a re-analysis of the deposited data

Results flagged for a closer look

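The effect of H2O2 differed between the lines, by the test of the difference itself, in 136 genes with a higher and 55 with a lower response in C3S cells. Of the genes, 6 were called in both lines in opposite directions: Smoc1 (difference 3.89), Zc2hc1c (3.87), Gm14305 (3.28) and ChkbCpt1b (2.87) fell in WT-Stat3 and rose in C3S cells, and Sema3b (-3.21) and Rsc1a1 (-2.26) rose in WT-Stat3 and fell in C3S cells. Counts of ChkbCpt1b, Gm14305 and Rsc1a1 are uncertain, since their exons overlap other genes or have near-identical copies. Rsc1a1 also lost its call without some of the single libraries, and DESeq2 gave no adjusted p for Zc2hc1c or Sema3b. Groups of 2 libraries are too small to look for a single outlying library.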

How the results depend on the processing

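All called genes that could be fitted kept their direction under every alternative. TMM scaling called 183 genes (175 of them among the 191), no filter 220, a mean of at least 50 159 and non-robust dispersion 195. DESeq2 called 116, 88 higher and 28 lower, and by adjusted p alone 817 higher and 185 lower. A test against a 2-fold difference (glmTreat) called 15, 13 higher and 2 lower; adjusted p alone called 1705, 1249 higher and 456 lower. Leaving out 1 library at a time gave 165 to 208 called genes, 110 to 139 higher and 44 to 69 lower; by adjusted p alone 816 to 1387 were higher and 268 to 491 lower. The responses of each line refitted on its own 4 libraries gave 1064 that rose and 209 that fell in WT-Stat3 cells and 998 and 189 in C3S cells, against 1015, 236, 1006 and 204. With the replicate block (column numbers) 213 genes were called, 148 higher and 65 lower, and all 191 remained; same-numbered libraries deviated together with correlations of only 0.029 to 0.157, so the numbers were not taken as pairs. Of 72 called genes that the naming rule gives, 8 fell below the threshold with DESeq2, 1 with TMM and 60 with glmTreat. Some also lost their call when a single library was left out. The median standard error of a difference was 1.186 (log2) under a mean of 20 and 0.074 from 1000.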
